A study of Sus scrofa with 4 samples.

Results

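Endothelial cells line blood and lymphatic vessels. They are held together by adherens and tight junctions built around VE-cadherin and claudin-5, and their identity is maintained by transcription factors of the ETS and SOX families. In the lung they form a dense capillary bed, fed by arteries and drained by veins, beside a separate lymphatic network. Each of these vessel types carries its own surface receptors, connexins and adhesion molecules.

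The 46 genes described here mark blood or lymphatic endothelium and were taken by name from a list that was drawn up with earlier results of these data known. Of them, 41 were found among the 29263 genes of each table, 39 by their symbol and ECSCR and AQP1 through their Ensembl identifiers. EGFL7, SOX7, APLNR, SELE and STAB2 were not matched and are not analysed here. All 41 passed the filter on low counts, SOX17, SOX18 and SELP only through their GFP-NEG counts. They were ordered by role into junction and surface proteins, transcription factors, capillary, arterial, venous and adhesion, lymphatic and scavenger genes, and a group of vasoactive and anticoagulant genes.

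The cells came from lungs of pigs carrying an LGR5-H2B-GFP knock-in, a genotype shared by all 4 libraries, in which a nuclear histone-GFP fusion reports transcription of LGR5, a receptor for R-spondins. Dissociated cells were sorted by fluorescence into GFP-HI and GFP-NEG, with biological replicates 1 and 2 of each. No antibody against an endothelial surface protein is named: the protocol lists only EPCAM and NGFR, treats adult and fetal lung together, and ties neither antibody nor stage to a library, although the name of the deposited comparison table carries the word adult. The histone fusion is a stable protein, so fluorescence need not follow the LGR5 transcript at the moment of sorting. With 2 libraries per group, each p-value and SE of the edgeR fit to all 4 libraries rests on a spread estimated over all genes together. The gene's own scatter carries no weight in that spread.

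Library totals were 24200550 and 24689986 counts for the GFP-HI libraries and 6292253 and 7045652 for GFP-NEG. GFP-HI thus held 3.67 times as many counts assigned to genes, by the means of the groups. Genes with at least 1 count numbered 18752 and 18392 in GFP-HI replicates 1 and 2, and 24120 and 25985 in GFP-NEG. Depth in counts and fraction cannot be told apart by design. Values are CPM, counts scaled to a library of 1000000 with TMM factors, and 1 count was worth 0.0453 to 0.0496 CPM in GFP-HI and 0.110 to 0.155 CPM in GFP-NEG. LGR5 was at 146 and 152 CPM in GFP-HI replicates 1 and 2 and at 1.55 and 0.767 CPM in GFP-NEG, as the labels say. A list of 18 leukocyte genes, 17 of them found, summed to 510 and 803 CPM in GFP-HI and to 4011 and 4510 CPM in GFP-NEG, and a list of 12 fibroblast genes summed to 88622 and 85043 CPM against 26622 and 9525 CPM. PTPRC, the pan-leukocyte gene, was at 45.9 and 121 CPM against 687 and 1214 CPM, and PDGFRA, a receptor of fibroblasts, was at 822 and 563 CPM against 97.2 and 22.7 CPM. Among the odorant receptor genes of the tables, which lung cells are not known for, the 95th percentile was 0 CPM in both GFP-HI libraries and 1.366 and 4.89 CPM in GFP-NEG replicates 1 and 2.

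Most endothelial genes were lower in the LGR5-reporter-bright cells. Of the 41 tested, 23 fell and 2 rose in edgeR's quasi-likelihood test, with adjusted p-values held to 0.05, and 16 did not pass. Over all 19682 genes tested, 27.6% were called lower and 8.35% higher. The members' median log2 fold change was -1.92, against -0.25 over all genes tested. Called lower were the junction genes PECAM1, CDH5, CLDN5 and ESAM with ECSCR, EMCN and MMRN2, the factors FLI1 and SOX17, the capillary genes CA4, PLVAP and EDNRB, all 4 arterial genes, VWF and SELP, the lymphatic and scavenger genes LYVE1, MMRN1 and STAB1, and NOS3 and CALCRL. AQP1 and EDNRA were called higher. In bulk libraries, fewer endothelial cells and less endothelial RNA per cell cannot be told apart.

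The levels of the groups did not overlap for 31 members that were lower in GFP-HI, against 42.0% of all genes tested, and for 4 that were higher, against 27.7%. The other 6 members overlapped. The authors' deposited table lists 39 of the 41 members, all but SOX17 and SELP, and calls 19 lower and 2 higher at an adjusted p under 0.05, against 11.2% and 8.20% of its 16250 genes. The number called here depended on the test and the libraries. With DESeq2, 24 were lower and 2 higher, against 26.7% and 6.91% of all genes tested, and edgeR with the replicate number as a block gave the same counts, against 24.4% and 8.67%. With limma-voom 15 were lower and 1 higher (26.3% and 4.58% of all genes), and DESeq2 with the block called 15 lower and 2 higher (16.0% and 6.13%). In fits of 3 libraries the lower count was 13 without GFP-HI replicate 1, against 13.2% of all genes in that fit, and 12 without GFP-HI replicate 2, against 12.0%. It was 20 of 40 without GFP-NEG replicate 2, against 8.98%. Without GFP-NEG replicate 1 it was 10 of 41, or 24.4%, against 23.3% of all genes, so the members' share was near that of all genes.

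**Figure D1:**
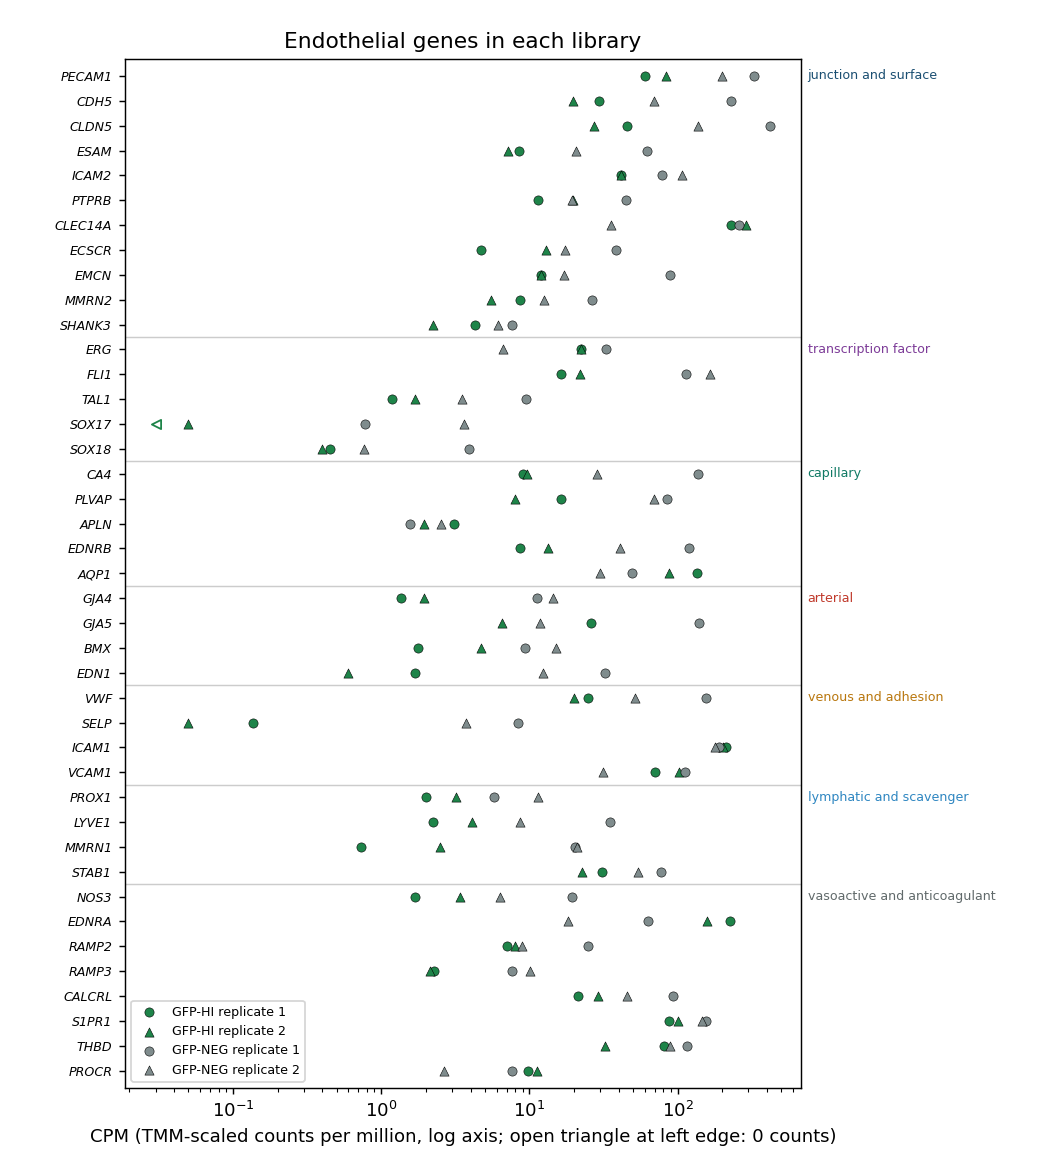
Level of each of the 41 members in each library, in TMM-scaled CPM on a log axis, grouped by role; green marks are GFP-HI, grey marks GFP-NEG, circles replicate 1 and triangles replicate 2. For most members both green marks lie to the left of both grey marks, while AQP1 and EDNRA show the opposite order and CLEC14A, ERG and VCAM1 overlap.

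Among junction and surface proteins, 7 of the 11 found fell and none rose, against 27.6% and 8.35% of all genes tested. Their median log2 fold change was -1.65. PECAM1, a homophilic adhesion molecule that leukocytes and platelets also carry, was at 59.8 and 83.3 CPM in GFP-HI replicates 1 and 2 and at 328 and 198 CPM in GFP-NEG. The means were 71.5 ± 16.6 and 263 ± 92.3 CPM (SD, n = 2 per fraction), a log2 fold change of -1.88 ± 0.62 (SE) with an edgeR adjusted p of 0.00888. The GFP-HI levels were both below the lower GFP-NEG level. CDH5, the VE-cadherin of endothelial adherens junctions, was at 29.2 and 19.6 CPM in GFP-HI and at 230.3 and 69.4 CPM in GFP-NEG (log2 fold change -2.62 ± 0.57, SE, edgeR adjusted p of 7.99e-05). CLDN5, the claudin of endothelial tight junctions, stood at 45.7 and 27.3 CPM against 419.8 and 136 CPM and was 7.61-fold lower (log2 fold change -2.93 ± 0.64, SE, edgeR adjusted p of 7.00e-05). For CDH5 and CLDN5 the groups were apart, and GFP-NEG replicate 1 was more than 3 times as high as GFP-NEG replicate 2.

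ESAM, a junctional adhesion molecule of endothelium and platelets, showed the same order, at 8.47 and 7.19 CPM against 61.6 and 20.7 CPM (log2 fold change -2.39, edgeR adjusted p of 1.86e-04). EMCN, the sialomucin endomucin of capillaries and veins, was at 12.0 and 12.0 CPM in GFP-HI and at 88.5 and 17.2 CPM in GFP-NEG (-2.14, edgeR adjusted p of 4.51e-04). Its separation from GFP-NEG replicate 2 was therefore small. ECSCR, a surface regulator of endothelial cell migration and apoptosis, and MMRN2, an extracellular matrix ligand of CLEC14A, fell by 1.65 and 1.47 on the log2 scale (edgeR adjusted p of 0.0154 and 0.0498). MMRN2 lost its call in every fit of 3 libraries, with adjusted p between 0.0572 and 0.486.

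The 4 junction and surface genes that did not pass were ICAM2, PTPRB, SHANK3 and CLEC14A. ICAM2, an integrin ligand shared with leukocytes, was at 41.2 and 41.7 CPM against 78.7 and 107 CPM, with the groups apart (log2 fold change -1.16, edgeR adjusted p of 0.0715). It passed under upper-quartile and library-size scaling (adjusted p of 0.0132 and 0.00862) and at equal depth (0.0439). PTPRB, the phosphatase VE-PTP that acts on VE-cadherin and TIE2, was at 11.5 and 19.7 CPM against 44.9 and 19.3 CPM, so that GFP-HI replicate 2 overlapped GFP-NEG replicate 2 (-1.04, edgeR adjusted p of 0.129, and 0.0485 and 0.0357 under upper-quartile and library-size scaling). SHANK3, a scaffold protein best known from synapses, had a log2 fold change of -1.08 (edgeR adjusted p of 0.361). CLEC14A, a C-type lectin receptor used as a pan-endothelial marker, was the only junction gene with a positive log2 fold change. It stood at 228 and 287 CPM in GFP-HI and at 259 and 35.3 CPM in GFP-NEG (log2 fold change 0.81 ± 0.62, SE, edgeR adjusted p of 0.328). Only GFP-NEG replicate 2 was low, and without GFP-NEG replicate 1 the log2 fold change was 2.92 (edgeR adjusted p of 0.0101). Without GFP-NEG replicate 2 it was -0.04.

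Leaving out a library ended several junction calls. Without GFP-NEG replicate 1 the log2 fold changes were -1.41 for PECAM1, -1.45 for CDH5, -1.35 for ESAM, -0.93 for ECSCR and -0.47 for EMCN, and none passed (edgeR adjusted p from 0.0815 to 0.672). Without GFP-HI replicate 2, PECAM1, CDH5, CLDN5, ESAM and EMCN had adjusted p of 0.0935, 0.0667, 0.0628, 0.0509 and 0.0816. Without GFP-HI replicate 1, PECAM1, ECSCR and EMCN had adjusted p of 0.142, 0.305 and 0.0822.

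Of the 6 transcription factors, 5 were found, 2 fell and none rose, against 27.6% and 8.35% of all genes tested. The median log2 fold change of those found was -2.41. FLI1, an ETS factor of endothelium that also acts in megakaryocytes and lymphocytes, was at 16.3 and 21.8 CPM in GFP-HI and at 113 and 164 CPM in GFP-NEG (log2 fold change -2.86 ± 0.57, SE, edgeR adjusted p of 1.45e-05). Both GFP-NEG libraries were high, with replicate 2 above replicate 1, the same order as PTPRC and the summed leukocyte list. Whether leukocytes contribute to the FLI1 difference was not tested. Its ETS relative ERG, which is more restricted to endothelium, did not pass the test. ERG was at 22.2 and 22.3 CPM in GFP-HI and at 32.8 and 6.58 CPM in GFP-NEG, overlapping, with a log2 fold change of 0.18 ± 0.55 (SE, edgeR adjusted p of 0.830) that was -0.13 under scaling by library size alone, -0.05 under upper-quartile scaling and -0.60 without GFP-NEG replicate 2.

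SOX17, a SOXF factor of arterial endothelium, had 0 and 1 counts in GFP-HI against 5 and 33 in GFP-NEG. A count of 0 in GFP-HI replicate 1 allows up to 0.136 CPM. SOX17 passed the filter on low counts only through its GFP-NEG counts, so the direction of its call was largely set by that filter. The pooled counts give a GFP-NEG to GFP-HI ratio of 103, with an exact 95% interval of 17.4 to 4180 that covers counting error only, and the fitted log2 fold change was -6.10 ± 1.61 (SE, edgeR adjusted p of 8.35e-04). Both GFP-NEG levels of SOX17, 0.776 and 3.62 CPM, were under the 95th percentile of the odorant receptor genes in the same library, which holds for no other member. Without GFP-HI replicate 1 or 2 its adjusted p was 0.102 or 0.0586, and it was not tested without GFP-NEG replicate 2. TAL1, a factor of blood and endothelial development, was at 1.18 and 1.69 CPM against 9.47 and 3.51 CPM (log2 fold change -2.17, edgeR adjusted p of 0.0812). In fits of 3 libraries its adjusted p was 0.0338 without GFP-NEG replicate 2, and 0.143 to 0.537 in the others, with a log2 fold change of -1.24 without GFP-NEG replicate 1. SOX18, a SOXF factor of blood and lymphatic vessels, was at 0.453 and 0.397 CPM against 3.88 and 0.767 CPM (-2.41, edgeR adjusted p of 0.131). In GFP-NEG replicate 2 both TAL1 and SOX18 lay under the odorant receptor percentile.

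**Figure D2:**
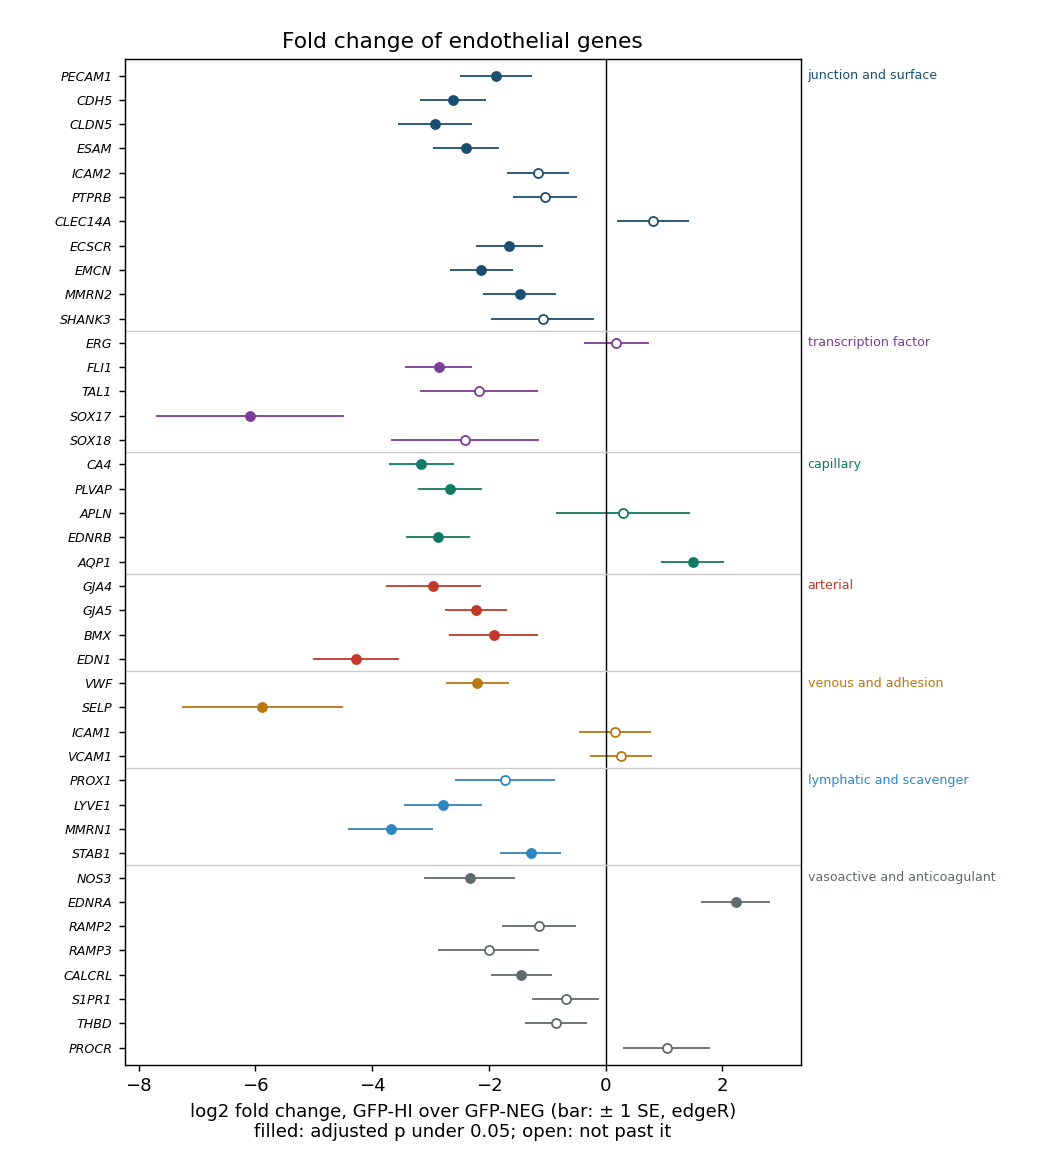
Fitted log2 fold change of GFP-HI over GFP-NEG for each member, with bars of ± 1 SE from edgeR; filled points passed an adjusted p-value of 0.05. The points range from SOX17 at -6.10 and SELP at -5.88 to EDNRA at 2.23, and the 4 arterial genes lie wholly on the lower side.

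Capillary genes split in direction. Lung capillaries hold aerocytes, which face the air space, and general capillary cells. The capillary genes were not assigned to either cell type here, and APLN, given below, did not pass in either direction. The share of either cell type was not tested. CA4, a membrane-bound carbonic anhydrase, was at 9.02 and 9.57 CPM in GFP-HI and at 138 and 28.7 CPM in GFP-NEG (log2 fold change -3.16 ± 0.56, SE, edgeR adjusted p of 7.25e-07). EDNRB, the endothelin B receptor, followed the same order at 8.56 and 13.2 CPM against 119.7 and 40.7 CPM (-2.88 ± 0.55, SE, edgeR adjusted p of 5.71e-06). PLVAP, the protein of fenestral diaphragms, was at 16.4 and 8.03 CPM against 84.9 and 69.7 CPM (-2.66 ± 0.54, SE, edgeR adjusted p of 2.48e-05). The GFP-NEG replicates of PLVAP lay close together, at a ratio of 1.22, whereas those of CA4 and EDNRB differed 4.79-fold and 2.94-fold. EDNRB and PLVAP kept their calls in each fit of 3 libraries, while CA4 lost its call without GFP-NEG replicate 1 (log2 fold change -1.58, edgeR adjusted p of 0.0752).

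APLN, the ligand apelin, was low in all libraries, at 3.08 and 1.93 CPM in GFP-HI and 1.55 and 2.52 CPM in GFP-NEG, and overlapped between groups (log2 fold change 0.29, edgeR adjusted p of 0.873). Its sign turned under library-size scaling, at -0.16, and under upper-quartile scaling, at -0.06, and its GFP-NEG replicate 2 level was under the odorant receptor percentile. AQP1, a water channel of capillary endothelium that erythrocytes and other cells also express, rose. Its levels were 134 and 86.8 CPM in GFP-HI and 49.1 and 29.7 CPM in GFP-NEG, with the groups apart and a log2 fold change of 1.49 ± 0.54 (SE, edgeR adjusted p of 0.0195). The difference within replicates was 1.45 and 1.54. The AQP1 call was lost under library-size and upper-quartile scaling, with limma-voom, at equal depth, and in each fit of 3 libraries (edgeR adjusted p from 0.0519 to 0.485). The 6 erythroid genes found summed to 0.0906 and 0 CPM in GFP-HI and to 13.7 and 9.10 CPM in GFP-NEG. HBB, a globin gene, had 2 and 0 counts in GFP-HI against 66 and 48 for GFP-NEG, and HBM, ALAS2, AHSP, SLC4A1 and KLF1 had 0 counts in GFP-HI. The summed fibroblast list was higher in the same libraries as AQP1. The part of either cell class in the AQP1 result was not tested.

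All 4 arterial genes among the members fell, against 27.6% of all genes tested. Their median log2 fold change was -2.59. EDN1, which encodes the vasoconstrictor endothelin 1, was at 1.68 and 0.595 CPM in GFP-HI and at 32.1 and 12.4 CPM in GFP-NEG, 19.3-fold lower (log2 fold change -4.27 ± 0.74, SE, edgeR adjusted p of 3.92e-07). The difference was nearly equal within the replicates, at -4.15 and -4.09, and the call held in each fit of 3 libraries. GJA4, the connexin 37 of arterial gap junctions, was at 1.36 and 1.93 CPM against 11.2 and 14.4 CPM (-2.95, edgeR adjusted p of 0.00148) and also kept its call in each of them. BMX, a TEC-family kinase of arterial endothelium and myeloid cells, was at 1.77 and 4.71 CPM against 9.32 and 15.1 CPM (-1.92, edgeR adjusted p of 0.0354). Its adjusted p was 0.267 without GFP-HI replicate 1 and 0.322 without GFP-NEG replicate 2.

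GJA5, the connexin 40 gene, was the arterial gene with the widest scatter. It was at 25.8 and 6.54 CPM in GFP-HI and at 139.9 and 11.7 CPM in GFP-NEG, so that GFP-HI replicate 1 lay above GFP-NEG replicate 2 and the groups overlapped. In both fractions replicate 1 was the higher library, by 11.9-fold in GFP-NEG. The log2 fold change was -2.22 ± 0.53 (SE, edgeR adjusted p of 2.25e-04), and the within-replicate differences were -2.43 and -0.83. Without GFP-NEG replicate 1 the sign turned to 0.52 (edgeR adjusted p of 0.649), and without GFP-HI replicate 2 the adjusted p was 0.257. GJA5 is the only called member whose groups overlapped.

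Venous and adhesion genes showed 2 patterns. VWF, the clotting protein stored in Weibel-Palade bodies, was at 24.9 and 19.8 CPM in GFP-HI and at 154 and 51.6 CPM in GFP-NEG (log2 fold change -2.20 ± 0.54, SE, edgeR adjusted p of 3.06e-04). SELP, the P-selectin that shares those granules and also occurs in platelets, had 3 and 1 counts in GFP-HI against 54 and 34 in GFP-NEG. It passed the filter on low counts only through its GFP-NEG counts, so the direction of its call was largely set by that filter. By pooled counts GFP-NEG was 59.7 times as high, with an exact 95% interval of 22.5 to 224 that covers counting error only, and the fitted log2 fold change was -5.88 ± 1.4 (SE, edgeR adjusted p of 1.71e-04). Both genes had their groups apart, though SELP in GFP-NEG replicate 2, at 3.73 CPM, lay under the odorant receptor percentile. SELP kept its call in each fit of 3 libraries, whereas VWF had a log2 fold change of -1.16 without GFP-NEG replicate 1 (edgeR adjusted p of 0.187) and an adjusted p of 0.0848 without GFP-HI replicate 2.

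The cytokine-inducible adhesion molecules did not pass the test. ICAM1, a ligand for leukocyte integrins that many cell types express, was at 212 and 203 CPM in GFP-HI and at 191 and 179 CPM in GFP-NEG. These 4 levels lie within a narrow band, and although the groups do not overlap, the log2 fold change was 0.16 ± 0.61 (SE, edgeR adjusted p of 0.867). VCAM1, which fibroblasts also express, was at 70.4 and 101 CPM against 112 and 31.5 CPM, overlapping (0.26 ± 0.53, SE, edgeR adjusted p of 0.747). Both signs turned under library-size scaling, to -0.26 and -0.08. ICAM1 was also at -0.16 under upper-quartile scaling, and VCAM1 at -0.42 without GFP-NEG replicate 2.

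SELP, VWF, PECAM1 and MMRN1 are also platelet genes. The list of 9 platelet and megakaryocyte genes, 8 of them found, summed to 130 and 197 CPM in GFP-HI and to 98.3 and 90.2 CPM in GFP-NEG, and 0 of its 5 tested genes passed in either direction. It was mostly ITGA2B, at 115 and 172 CPM against 84.2 and 73.8 CPM, while TREML1 had 0 counts in 3 libraries and 2 in GFP-NEG replicate 2. The others were low and mixed in order. TUBB1 (0.408 and 1.04 against 2.95 and 4.82 CPM), GP6 and GP1BA were apart and lower in GFP-HI, in the order of SELP and MMRN1, GP9 was apart and higher (5.80 and 3.87 against 0.932 and 1.43 CPM), and PPBP and GP1BB overlapped. The part of platelets in these results was not tested.

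In the lymphatic and scavenger group, 3 of the 4 genes found fell, against 27.6% of all genes tested. PROX1, the master regulator of lymphatic endothelial identity, was at 1.99 and 3.17 CPM in GFP-HI and at 5.74 and 11.4 CPM in GFP-NEG. Its groups were apart, but the change did not pass (log2 fold change -1.73 ± 0.86, SE, edgeR adjusted p of 0.104). MMRN1, the multimerin of lymphatic endothelium and platelets, was at 0.725 and 2.48 CPM against 20.3 and 20.9 CPM, 12.9-fold lower (-3.69 ± 0.72, SE, edgeR adjusted p of 1.13e-05), and kept its call in each fit of 3 libraries. The GFP-NEG replicates of MMRN1 lay close together.

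LYVE1, a hyaluronan receptor of lymphatic endothelium and some macrophages, was at 2.22 and 4.07 CPM in GFP-HI and at 34.8 and 8.66 CPM in GFP-NEG (log2 fold change -2.78, edgeR adjusted p of 2.14e-04). Its call was lost without replicate 1 of GFP-NEG (-1.41, edgeR adjusted p of 0.267) or of GFP-HI (adjusted p of 0.0636). STAB1, a scavenger receptor of sinusoidal and lymphatic endothelium and of macrophages, was at 30.9 and 22.6 CPM against 76.7 and 53.8 CPM, with the groups apart (-1.29 ± 0.52, SE, edgeR adjusted p of 0.0389). Its adjusted p lay between 0.126 and 0.303 in the fits of 3 libraries, so none of these kept the call. Of the monocyte and macrophage genes in the leukocyte list, CD14 (14.0 and 6.59 against 223 and 102.6 CPM) and CSF1R (50.2 and 17.0 against 238 and 330 CPM) were lower in GFP-HI in both replicates. CD163 was at 28.7 and 31.8 against 115 and 32.8 CPM, and CD68 and MARCO overlapped and were higher in GFP-HI within replicate 2. The part of these cells in the LYVE1 and STAB1 differences was not tested.

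Of the 8 vasoactive and anticoagulant genes, 2 fell, 1 rose and 5 did not pass, shares close to the 27.6% and 8.35% of all genes tested. NOS3, the endothelial nitric oxide synthase, was at 1.68 and 3.42 CPM in GFP-HI and at 19.4 and 6.36 CPM in GFP-NEG (log2 fold change -2.33 ± 0.78, SE, edgeR adjusted p of 0.0101). CALCRL, the receptor that binds adrenomedullin together with a RAMP protein, was at 21.3 and 29.0 CPM against 92.4 and 45.2 CPM (-1.45, edgeR adjusted p of 0.0183). The groups were apart for both. Leaving out GFP-NEG replicate 1 gave -1.27 and -0.79 (edgeR adjusted p of 0.391 and 0.400), without GFP-HI replicate 1 their adjusted p was 0.139 and 0.224, and CALCRL was at 0.113 without GFP-HI replicate 2.

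The partners of CALCRL had negative fold changes that did not pass. RAMP2, the partner that forms an adrenomedullin receptor, was at 7.07 and 8.03 CPM against 24.7 and 8.88 CPM (log2 fold change -1.15, edgeR adjusted p of 0.153). RAMP3 was at 2.27 and 2.13 CPM against 7.61 and 10.1 CPM, with the groups apart (-2.01, edgeR adjusted p of 0.0577), and it passed with the replicate number as a block (adjusted p of 0.030), the only member whose call the block changed in edgeR. RAMP3 also passed with upper-quartile and library-size scaling, DESeq2, limma-voom and thinning (adjusted p from 0.0229 to 0.0451), but not with DESeq2 and the block (0.189) or in any fit of 3 libraries (0.0733 to 0.264). S1PR1, the sphingosine 1-phosphate receptor of endothelium and lymphocytes, was at 86.8 and 100.2 CPM against 155 and 146 CPM (-0.69 ± 0.57, SE, edgeR adjusted p of 0.369). The S1PR1 levels were apart, and each group's replicates lay close together.

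Thrombomodulin and the endothelial protein C receptor act together in protein C activation, and their fold changes had opposite signs. THBD was at 80.8 and 32.2 CPM in GFP-HI and at 116 and 88.5 CPM in GFP-NEG (log2 fold change -0.85, edgeR adjusted p of 0.217). PROCR was at 9.74 and 11.2 CPM against 7.61 and 2.63 CPM (1.04, edgeR adjusted p of 0.288), with GFP-NEG replicate 2 under the odorant receptor percentile. Neither passed, and the difference between their changes was not tested.

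EDNRA, the endothelin A receptor, rose. It is chiefly a receptor of smooth muscle and mesenchymal cells, in contrast to EDNRB. Its levels were 224 and 157 CPM in GFP-HI and 63.2 and 18.2 CPM in GFP-NEG, with the groups apart and a log2 fold change of 2.23 ± 0.59 (SE, edgeR adjusted p of 8.31e-04). The differences within replicates were 1.82 and 3.10. Without GFP-NEG replicate 2 the log2 fold change was 1.55 and the call was lost (edgeR adjusted p of 0.311). Within the endothelin genes the ligand EDN1 and the receptor EDNRB thus fell and the receptor EDNRA rose. The smooth muscle and pericyte list of 12 genes summed to 2498 and 2981 CPM in GFP-HI and to 2814 and 435 CPM in GFP-NEG, with 3 genes called higher and 4 lower, and the fibroblast sums stood in the same order as EDNRA in all 4 libraries. Their part in the EDNRA result was not tested.

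**Figure D3:**
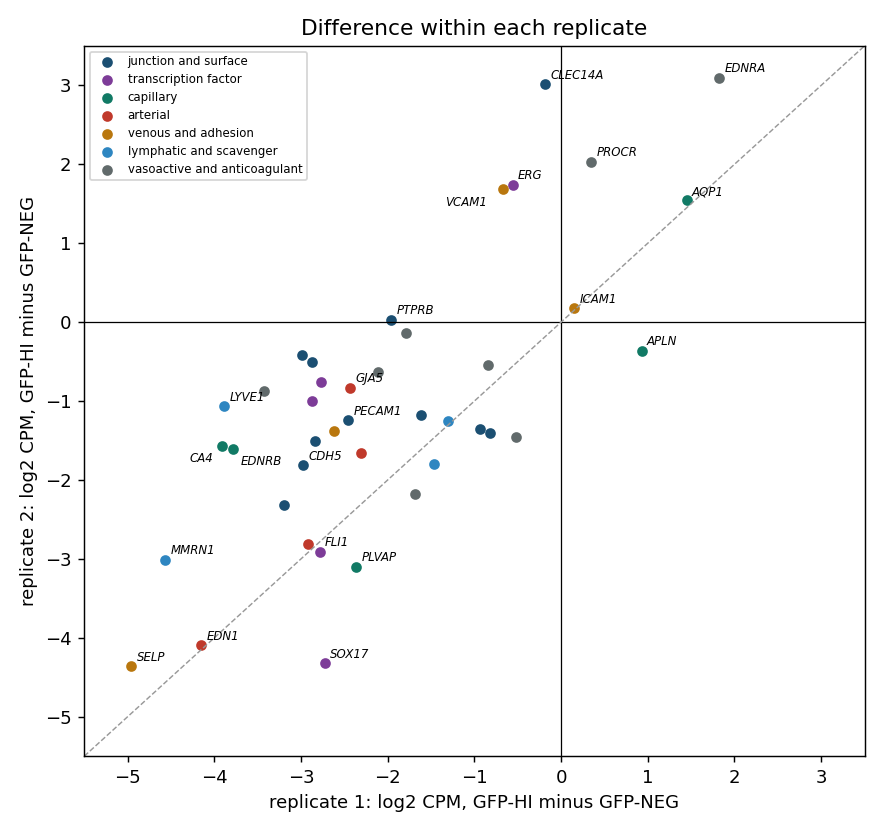
Difference in log2 CPM (GFP-HI minus GFP-NEG, with 2 counts added in proportion to library size) of each member within replicate 1 on the horizontal axis and within replicate 2 on the vertical axis, coloured by role; the dashed line marks equal differences. Of the 41 points, 32 lie above the dashed line, and CLEC14A, ERG and VCAM1 sit left of 0 in replicate 1 and above 0 in replicate 2.

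The size of the difference depended on the replicate. Within replicate 1 the members' median difference in log2 CPM was -2.37, and within replicate 2 it was -1.24, against -0.19 and -0.39 over all genes tested. Of the 41 members, 32 were lower in GFP-HI within both replicates, against 46.5% of all genes tested, 4 were higher within both, against 33.4%, and 5 had opposite signs. Those 5 were PTPRB, CLEC14A, ERG, APLN and VCAM1.

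The GFP-NEG libraries differed from each other in these genes. In GFP-NEG, 32 members were higher in replicate 1 than in replicate 2, against 44.8% of all genes tested. The median ratio of replicate 1 to replicate 2 was 2.25 over the members and 0.919 over all genes tested. In GFP-HI the median ratio over the members was 0.991. The 9 members that were higher in GFP-NEG replicate 2 were ICAM2, FLI1, SOX17, APLN, GJA4, BMX, PROX1, RAMP3 and MMRN1. The GFP-NEG replicate 1 library also had the higher summed fibroblast, smooth muscle and epithelial lists (858 against 251 CPM for the 12 epithelial genes), and GFP-NEG replicate 2 the higher leukocyte sum. Without GFP-NEG replicate 1 the members' median log2 fold change was -1.16, against -0.43 over all genes tested in that fit.

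**Figure D4:**
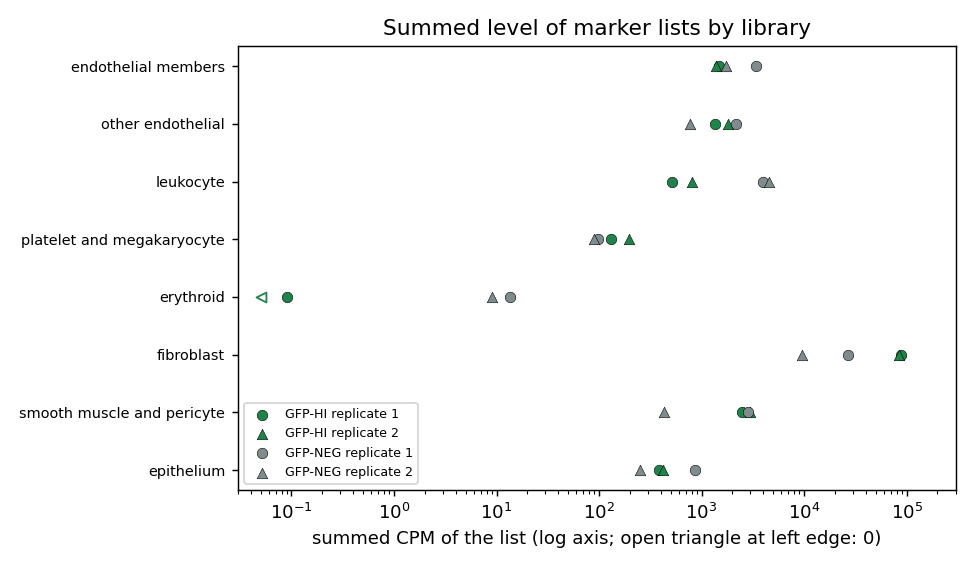
Summed CPM of the members and of marker lists for other cell classes in each library, on a log axis; colours and shapes are as in the plot of member levels, and an open triangle marks a sum of 0. Leukocyte sums are higher in both GFP-NEG libraries, fibroblast sums are higher in both GFP-HI libraries, and the GFP-NEG replicate 2 marks are the lowest for the other endothelial, fibroblast, smooth muscle and epithelial lists.

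Other genes used as endothelial markers were taken from a list of 36 that holds none of the members. Of the 36, 21 fell and 4 rose, against 27.6% and 8.35% of all genes tested, with a median log2 fold change of -2.0. Their summed level overlapped between the groups, at 1366 and 1811 CPM in GFP-HI and at 2162 and 771 CPM in GFP-NEG, and was higher in GFP-HI within replicate 2. KDR, the main VEGF receptor, was at 11.3 and 14.5 CPM in GFP-HI and at 105.4 and 54.9 CPM in GFP-NEG (log2 fold change -2.63, edgeR adjusted p of 2.97e-05). TEK, the angiopoietin receptor TIE2, was at 4.08 and 9.87 CPM against 37.6 and 33.2 CPM (-2.34, edgeR adjusted p of 3.22e-04). FLT1, the decoy VEGF receptor, was at 1.90 and 1.88 CPM against 8.85 and 5.26 CPM and did not pass (-1.89, edgeR adjusted p of 0.110). All of these had their groups apart.

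The genes of that list with the largest falls were low throughout. TBX1, a T-box factor of lymphatic development among other roles, had 0 and 4 counts in GFP-HI against 11 and 14 in GFP-NEG. GPIHBP1, which anchors lipoprotein lipase to capillaries, had 3 and 3 against 22 and 8 counts. RELN, the matrix protein reelin of lymphatic vessels, had 11 and 13 against 33 and 54 counts. TBX1, GPIHBP1 and RELN passed the filter on low counts only through their GFP-NEG counts. The direction of their calls was thus largely set by that filter. Their log2 fold changes were -3.95, -3.82 and -3.26 (edgeR adjusted p of 0.0129, 0.0168 and 0.0176), and with the replicate block TBX1 and GPIHBP1 no longer passed (adjusted p of 0.0955 and 0.122). The number of these 36 genes that fell was 13 with limma-voom, against 26.3% of all genes, and 7 (19.4%) with DESeq2 and the replicate block, against 16.0%. It was 6 (16.7%) without GFP-HI replicate 1, against 13.2%, and 7 (19.4%) without GFP-HI replicate 2, against 12.0%. Without GFP-NEG replicate 1 it was 6 of 35 (17.1%), below the 23.3% of all genes.

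The 4 that rose were CD34, TMEM100, NR2F2 and PDPN. CD34, a sialomucin of endothelium, blood progenitors and fibroblasts, was at 372 and 313 CPM in GFP-HI and at 162 and 42.5 CPM in GFP-NEG (log2 fold change 1.74, edgeR adjusted p of 0.0225). NR2F2, the COUP-TFII factor of veins and of mesenchyme, was at 106 and 200.5 CPM against 50.6 and 12.3 CPM (2.29, edgeR adjusted p of 3.85e-04). PDPN, podoplanin of lymphatic endothelium, alveolar type 1 cells and fibroblasts, was at 40.1 and 69.4 CPM against 14.4 and 7.45 CPM (2.33, edgeR adjusted p of 1.79e-04). TMEM100, a BMP-responsive transmembrane protein, was at 225 and 673 CPM against 192 and 47.1 CPM (1.91, edgeR adjusted p of 0.0168). The higher genes of this list numbered 1 without GFP-HI replicate 2, against 3.03% of all genes, and 0 when GFP-NEG replicate 2 was omitted, against 1.23%.

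**Figure D5:**
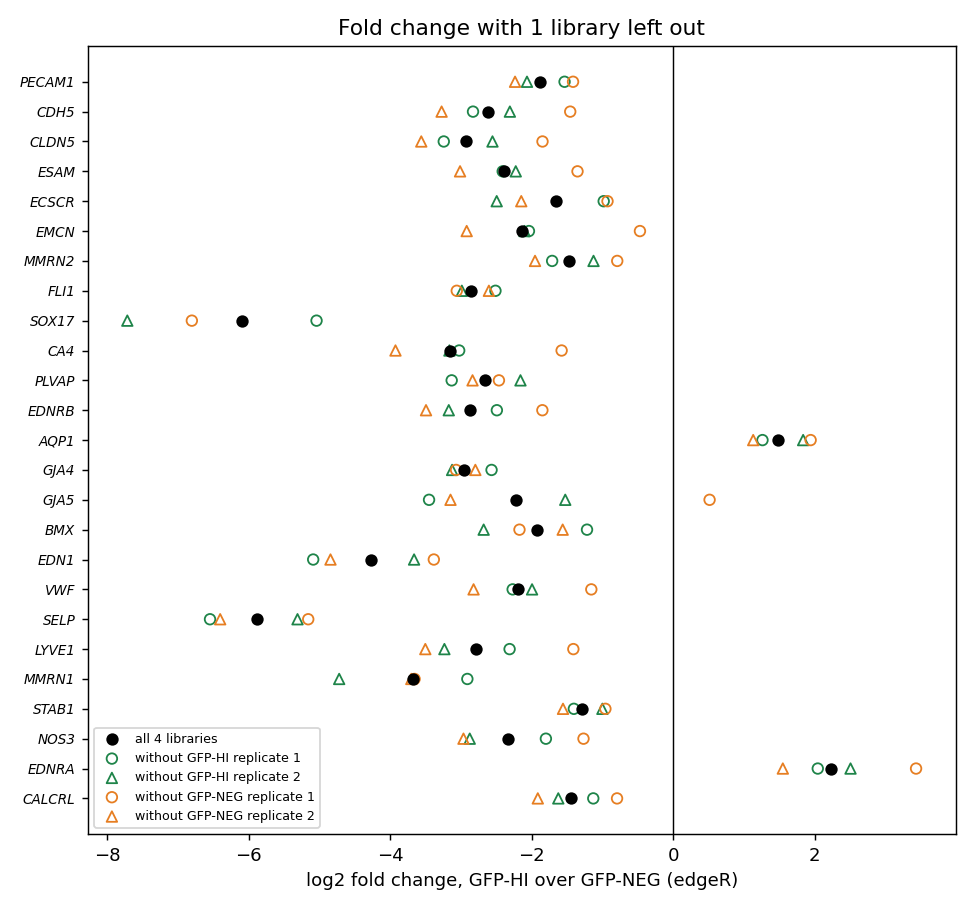
Fitted log2 fold change of the 25 called members with all 4 libraries (black) and with 1 library left out (open marks; green, a GFP-HI library, and orange, a GFP-NEG library). Leaving out GFP-NEG replicate 1 moved GJA5 to 0.52 and EMCN to -0.47, while EDN1, EDNRB, FLI1, GJA4, MMRN1, PLVAP and SELP stayed at or below -1.85 in each fit.

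Across these fits of 3 libraries and the 10 alternatives with all 4 libraries, 7 of the 25 called members kept their call throughout: EDN1, EDNRB, FLI1, GJA4, MMRN1, PLVAP and SELP. In the 10 alternatives with all 4 libraries, 14 kept it, the others being PECAM1, CDH5, CLDN5, ESAM, CA4, VWF and EDNRA. Of the 7 genes, EDNRB and PLVAP are in the capillary group and EDN1 and GJA4 in the arterial group. MMRN1 is in the lymphatic and scavenger group, and FLI1 is a transcription factor. The venous and adhesion group enters only through SELP, which had 3 and 1 counts in GFP-HI. The direction of the SELP call was largely set by the filter on low counts, in every fit. The share of all called genes that kept their call was not computed, so neither count can be set against it.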

How the data were processed

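RNA sequencing was done on 2 GFP-HI and 2 GFP-NEG libraries, grouped and numbered by their titles. The authors deposited 1 table of raw counts by gene per library. Per the submitters' processing notes, featureCounts, Subread 1.5.2 and DESeq2 1.37.6 were used; aligner settings, strand setting and genome build are not given in the sources used here. The authors also deposited a comparison table with a log2 fold change and an adjusted p-value for each of 16250 genes. Its 4 columns of normalized values were not used, since 2 of these columns are headed with the name of a different library. Those headings name pig 1 and pig 2 in both fractions. By their values, however, both pig 1 columns carry GFP-NEG libraries and both pig 2 columns carry GFP-HI libraries. The headings therefore cannot show which libraries come from 1 animal. That the replicate number pairs libraries of 1 animal is an assumption (correlation of same-numbered deviations across genes 0.16). Only the fits with the replicate block and the differences within replicates use it.

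Counts were tested here with edgeR 4.0.16 (R 4.3.3; quasi-likelihood F test, TMM scaling, filterByExpr, group as the only term) over 19682 genes, with Benjamini-Hochberg adjustment over all of them and a threshold of 0.05. The SE was obtained as the log2 fold change over the root of F. The common dispersion was 0.239, and prior degrees of freedom were infinite, so the quasi-likelihood spread was fully shared across genes. The SE therefore does not measure a gene's own replicate spread. Alternatives were RLE, upper-quartile and library-size scaling, no filter or a filter of 1 CPM in 2 libraries, DESeq2 1.42.0, limma-voom 3.58.1, the replicate block, GFP-HI thinned to the GFP-NEG depth, and each library left out; a lone library was then assumed to vary like the other group. The procedure was also run on simulated counts in which every gene had the common dispersion. That run does not cover genes with wider scatter of their own, and no result here rests on it.

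The members and lists were chosen with earlier results of these data known. All found members are named. Values in every library with fold change, SE and adjusted p are given for PECAM1, CDH5, VWF and PROX1, for called members that rose, and in each role for the member with the highest CPM in GFP-NEG and that with the largest change; other values were added for description. The single leukocyte, platelet and erythroid genes other than PTPRC and the 4 higher genes of the list of 36 were named after their values were seen. Identifiers were given symbols from the gene name table provided (834 renamed). In RefSeq's Sscrofa11.1, 10 members overlap another gene, among them MMRN2, STAB1, SOX18 and RAMP3, and reads there may be shared. Levels were not compared between genes, since no transcript lengths were used.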

Additional observations from a re-analysis of the deposited data

How the results depend on the processing

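The members called lower numbered 23 with edgeR, 15 with limma-voom and 15 with DESeq2 and the replicate block, a fit chosen after seeing the data, and 10 to 20 when 1 library was left out. It was 26 under upper-quartile and library-size scaling, which added ICAM2, PTPRB and RAMP3. Of all 19682 genes tested, 5635 and 5730 were lower under these scalings. The members called higher numbered 2, and 1 under upper-quartile scaling, library-size scaling, limma-voom and thinning, and 0 to 2 with 1 library left out. For the 36 other endothelial genes the lower count was 21, with 13 under limma-voom, 7 under DESeq2 with the block and 6 to 16 with 1 library left out; the higher count was 4, with 2 under limma-voom and 0 to 4. Over all genes, 5433 were lower, with 3576 after thinning, 3153 under DESeq2 with the block and 1575 to 4999 with 1 library left out. The higher count was 1643, with 1083 with upper-quartile factors, 888 with library sizes only, 902 under limma-voom and 216 to 1635. A fit with 3 libraries has fewer samples by construction; otherwise the cause was not tested. The replicate block in edgeR gave 24 members lower and 2 higher and changed no member's call but that of RAMP3. LGR5 kept its call in every alternative, between 6.54 without GFP-NEG replicate 2 and 7.64 without GFP-NEG replicate 1.

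The all-gene median log2 fold change was -0.25 with TMM, -0.58 with upper-quartile factors and -0.68 with library sizes only. Signs turned under upper-quartile scaling for ERG (-0.0459), APLN (-0.0633) and ICAM1 (-0.16), and under library-size scaling for these (-0.13, -0.16 and -0.26) and VCAM1 (-0.0847). With 1 library left out values ranged from -0.0443 to 2.92 for CLEC14A, -0.60 to 1.81 for ERG, -0.42 to 1.499 for VCAM1 and -3.45 to 0.52 for GJA5, the last of these being the only called member whose sign turned. RLE scaling changed no member's call. Of the 36 members above the odorant receptor level, another limit chosen after seeing the data, 21 were lower and 2 higher. The share of all genes called at this limit was not computed. The GFP-NEG depth limits the low genes, since 3 counts there are worth 0.329 to 0.466 CPM.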

Other observations

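Further lists describe what else the fractions held. The epithelial list of 12 genes had 2 genes called lower and 0 higher, and its median was -0.99 on the log2 scale. Of the 17 leukocyte genes tested, 14 were lower and 0 higher, with a median of -3.45. CD79A, a B cell receptor component chosen after its values were seen, was at 77.8 and 159 CPM in GFP-HI and at 107 and 252 CPM in GFP-NEG and did not pass (-0.60, edgeR adjusted p of 0.462). Of 6 mesothelial genes, 2 were found, and they summed to at most 3.18 CPM in any library. A list of 41 genes of other tissues, 33 of them found, summed to 78.3 and 104 CPM in GFP-HI and to 212 and 159 CPM in GFP-NEG, with 6 of 13 tested genes lower and 1 higher. The odorant receptor genes summed to 1.95 and 4.16 CPM in GFP-HI and to 43.8 and 132 CPM in GFP-NEG, and the 9 of them that were tested were all called lower. Nearly all odorant receptor genes had 0 counts in each GFP-HI library. A gene without counts in GFP-HI can pass the filter on low counts only through its GFP-NEG counts. The direction of the 9 calls was thus largely set by the filter, and no conclusion is drawn from it.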
